A study of Mus musculus with 17 samples.

Results

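The genes for axon guidance ligands and their receptors were followed in bulk RNA from mouse frontal cortex. Members were chosen by symbol, as every Eph receptor, ephrin, class 3 to 7 semaphorin, plexin, neuropilin, Slit, Robo, netrin, Unc5 receptor and Dcc whose name follows the standard pattern, and 69 of the 25239 genes in the tables met the rule. They comprised 14 Eph receptors, 8 ephrins, 20 semaphorins, 9 plexins, 2 neuropilins, 3 Slits, 4 Robos, 4 netrins and 5 Dcc and Unc5 receptors. The 17 libraries all came from mice of the DAT-cre line, in which Cre is driven by the dopamine transporter gene, and fell into 6 groups. After an addiction protocol called oDASS, tissue was dissected from the orbitofrontal cortex (OFC; 3 perseverer and 3 renouncer libraries) and from the medial prefrontal cortex (mPFC; 3 perseverer and 3 renouncer libraries). Before the protocol, imprints of brain tissue were taken from the OFC (2 perseverer and 3 renouncer libraries). The study calls perseverers addicted and renouncers non-addicted. The labels give no age or sex and leave it unsaid if each replicate is its own animal, so p-values measure the spread between these libraries, which may be technical.

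Guidance cues steer growing axons by attraction or repulsion, and many stay on in the adult cortex, where they act at synapses and blood vessels. Ephrins sit on the cell surface and bind Eph receptor tyrosine kinases. Semaphorins signal through plexins, with neuropilins as co-receptors for most secreted class 3 members. Slits are secreted ligands of Robo receptors, and netrins bind Dcc and the Unc5 receptors.

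The sequence before a transcript start of each of the 3 genes that passed the test between the regions is shown. Each run is the 250 bases before the RefSeq transcript start on the plus strand of GRCm38.p6, credited to RefSeq, with capitals marking GGGCGG or its reverse complement CCGCCC, the core of a GC box. Sema7a occupies bases 57939596 to 57962865 of chromosome 9, Ntn4 bases 93641049 to 93745972 of chromosome 10 and Robo1 bases 72027518 to 73047491 of chromosome 16, and 0 GENCODE exons overlapped any of the 3 windows. The Ntn4 window ends next to the annotated gene start, whereas the Sema7a window begins 266 bases and the Robo1 window 635381 bases inside the annotated gene, so that these lie before internal starts.
Sema7a, chr9:57939862-57940111: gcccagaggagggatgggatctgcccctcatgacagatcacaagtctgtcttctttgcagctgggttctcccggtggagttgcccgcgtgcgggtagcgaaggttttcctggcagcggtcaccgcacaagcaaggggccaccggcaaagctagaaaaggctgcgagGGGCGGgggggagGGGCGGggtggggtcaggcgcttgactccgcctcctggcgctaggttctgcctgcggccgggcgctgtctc
Ntn4, chr10:93640799-93641048: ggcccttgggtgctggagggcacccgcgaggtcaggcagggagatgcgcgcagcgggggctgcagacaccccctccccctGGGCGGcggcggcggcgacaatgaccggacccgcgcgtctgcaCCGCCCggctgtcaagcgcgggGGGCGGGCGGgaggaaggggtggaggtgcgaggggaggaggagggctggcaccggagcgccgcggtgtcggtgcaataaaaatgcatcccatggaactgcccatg
Robo1, chr16:72662899-72663148: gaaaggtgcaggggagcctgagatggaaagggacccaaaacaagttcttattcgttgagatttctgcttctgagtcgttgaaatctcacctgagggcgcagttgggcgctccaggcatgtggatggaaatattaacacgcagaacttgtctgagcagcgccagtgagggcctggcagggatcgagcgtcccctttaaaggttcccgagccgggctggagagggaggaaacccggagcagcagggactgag
The Sema7a window held 2 matches to the motif and the Ntn4 window 4 matches, of which 1 pair overlaps. The Robo1 window held 0. GC content was 66.4% for Sema7a, 73.2% for Ntn4 and 56% for Robo1. RefSeq promoter entries were found for 59 of the 69 members, in 75 entries, and 53 of those (70.7%) held GGGCGG on either strand, against 10756 of all 32851 promoters of the same length (32.7%). TATAAA stood in 2 of the 75 entries (2.67%), against 12.4% of all promoters, and TGACGTCA, the cyclic AMP response element, in 1.33% against 1.55%. Median GC content was 64.4% in the members' entries and 52.4% in all promoters. A match describes letters in the window and not a bound site.

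The dissections were sequenced to between 12392731 and 20945108 counts and the imprints to between 8960549 and 10662666. Haemoglobin genes took 85.4 to 90.7% of the counts in 4 imprints and 29.7% in the remaining one, renouncer replicate 1, but at most 0.0787% in any dissection. Markers of excitatory neurons (4 genes) summed to 3070 to 4780 CPM (counts relative to library size after TMM scaling) in OFC dissections and 2779 to 6279 in mPFC dissections, none of the markers being at 0 throughout the dissections. The guidance genes together made up 0.152 to 0.216% of counts outside haemoglobin in OFC dissections and 0.164 to 0.224% in mPFC dissections. In the imprints they made up 0.0660 and 0.0359% in perseverers 1 and 2, and 0.131, 0.0299 and 0.0612% in renouncers 1 to 3. At this depth 48 and 52 members had a count in the perseverer imprints, 35 and 46 in renouncer imprints 2 and 3 and 67 in renouncer imprint 1, against 67 to 69 in each dissection.

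Levels were set across genes per kilobase of the deposited gene length, as CPM averaged over the 12 dissections with their SD. The highest level of any member was that of Ephb6, a kinase-defective Eph receptor, at 50.4 ± 11.6 CPM per kilobase. Sema6b, a transmembrane semaphorin, followed at 33.8 ± 5.83, and the ephrin Efna3 stood at 31.3 ± 6.15 CPM per kilobase. Unc5a, a netrin receptor of the repulsive type, stood at 29.2 ± 5.0 CPM per kilobase. The SD ranges of Sema6b, Efna3 and Unc5a overlapped, and their order within libraries was not tested. The distance within the group of Unc5a was wide, since the other members of its group lay between 0.554 (Dcc, the attractive netrin receptor) and 1.67 (Unc5d). In the remaining families the highest member was Plxnb1, the receptor of Sema4d, at 8.95 ± 2.13 CPM per kilobase, then Robo2 at 5.72 ± 1.35, Nrp1 at 5.09 ± 1.16, Slit1 at 4.49 ± 1.72 and Ntn4 at 3.48 ± 1.57. The netrin Ntn1 was lower, at 0.5263 CPM per kilobase. Raw counts of Efna4 in the dissections were 0 to 12 and those of Epha1 0 to 8, and both genes fell below the filter on low counts in every comparison.

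**Figure D1:**
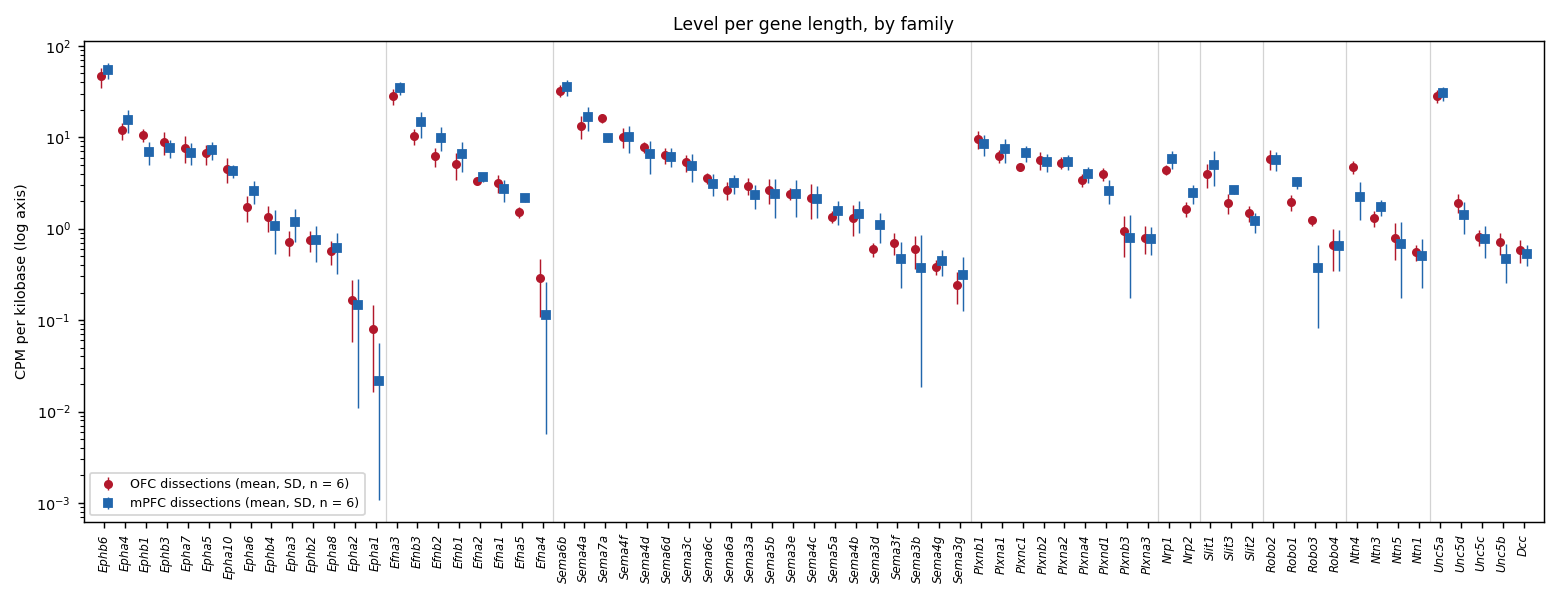
Level of each of the 69 guidance genes in CPM per kilobase on a log axis, as means with SD over 6 OFC and 6 mPFC dissections, grouped by family; lower bars are cut where the SD reaches the mean. Ephb6, Sema6b, Efna3 and Unc5a stand above the other members, and Dcc, Unc5b and Ntn1 lie below 1.

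OFC was set against mPFC in the 12 dissections with phenotype as a term. Sema7a and Ntn4 were higher and Robo1 was lower in OFC by the edgeR quasi-likelihood test at a Benjamini-Hochberg adjusted p under 0.05. These were 3 of the 67 members tested (4.48%), beside 1.85% of all 14409 genes tested. At an unadjusted p under 0.05 the members numbered 19 (28.4%), beside 14.5% of all genes. Signs were balanced, with 32 positive and 35 negative log2 fold changes (OFC over mPFC) and a median of -0.0010, while the median size without sign was 0.26 for the members and 0.16 for all genes. The 6 OFC and 6 mPFC libraries did not overlap for 3 members (4.48%), beside 1.9% of all genes. Those 3 were Sema7a, Efna5 and Robo3, so that Sema7a alone met both criteria. At a looser threshold of 0.1 edgeR called 9 members (3.73% of all genes). DESeq2 called 10 members (4.87% of all genes) and limma 10 (6.45% of all genes). Both called Sema7a, Ntn4, Robo1, Efna5, Efnb2, Ephb1, Nrp2, Plxnc1 and Robo3. With the replicate number as a block, edgeR called 11 members, beside 1148 of all 14409 genes. Among these 11 were Plxnc1, Plxnd1, Nrp1, Nrp2, Ephb1, Efnb2 and Robo3. The statements below on which members passed are therefore those of edgeR without that block.

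Sema7a, a membrane-anchored semaphorin that binds integrins and plexin C1, had 58.4, 53.2 and 47.4 CPM in OFC perseverers and 58.2, 58.5 and 44.5 CPM in OFC renouncers. In mPFC it had 35.3, 27.5 and 33.7 CPM in perseverers and 30.8, 34.6 and 33.2 CPM in renouncers. Every OFC library lay above every mPFC library, and the log2 fold change was 0.70 ± 0.11 (SE, edgeR adjusted p = 0.00364). The difference was 0.73 ± 0.16 within perseverers and 0.68 ± 0.16 within renouncers on the log2 scale. Plxnc1, the plexin that Sema7a binds, ran the other way without passing the test, at 29.7 to 39.9 CPM in OFC (median 34.3) and 35.7 to 59.4 CPM in mPFC (median 52.6). Its log2 fold change was -0.51 ± 0.13 (edgeR adjusted p = 0.0712), and 2 mPFC renouncer libraries lay within the OFC range.

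Ntn4, a netrin found in basement membranes, had 10.8, 9.91 and 14.2 CPM in OFC perseverers and 11.7, 13.1 and 8.84 CPM in OFC renouncers. In mPFC it had 5.54, 6.83 and 3.75 CPM in perseverers and 4.0, 2.81 and 9.24 CPM in renouncers. The regions overlapped through mPFC renouncer 3 and OFC renouncer 3, and the log2 fold change was 1.09 ± 0.26 (edgeR adjusted p = 0.0454). Leaving out a single library ended this call in 11 of 12 cases, all but mPFC renouncer 3, with log2 fold changes of 0.96 to 1.18 in those cases.

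Robo1, a Slit receptor, had 14.7, 19.2 and 14.5 CPM in OFC perseverers and 16.5, 12.6 and 10.9 CPM in OFC renouncers. In mPFC it had 27.2, 22.6 and 24.3 CPM in perseverers and 29.4, 23.4 and 19.1 CPM in renouncers. OFC perseverer 2 just exceeded mPFC renouncer 3 and the other libraries were apart, with a log2 fold change of -0.74 ± 0.15 (edgeR adjusted p = 0.0173). The call ended without OFC perseverer 1, OFC renouncer 2, mPFC perseverer 1 or mPFC renouncer 2, at adjusted p between 0.0506 and 0.0549. Robo3, a divergent Robo known from commissural axons, went the opposite way at 4.93 to 6.82 CPM in OFC (median 5.66) and 0.0780 to 4.21 CPM in mPFC (median 1.44). Its groups did not overlap, yet the log2 fold change of 1.73 ± 0.46 did not pass (edgeR adjusted p = 0.0718), and the mPFC libraries held only 1 to 73 raw counts. None of the 3 Slits passed, and their median log2 fold change was -0.33.

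Ephrins leaned towards mPFC, with 6 negative log2 fold changes of 7 and a median of -0.37, but 0 of the 7 passed. Efnb2, a transmembrane ephrin known as an arterial marker, had 21.0 to 41.0 CPM in OFC (median 29.1) and 28.8 to 62.2 CPM in mPFC (median 48.2), with overlap. Its log2 fold change was -0.69 ± 0.19 (edgeR adjusted p = 0.0856). Efna5, a membrane-anchored ephrin that takes part in topographic maps, had 6.15 to 8.84 CPM in OFC (median 8.33) and 10.1 to 12.7 CPM in mPFC (median 11.04). Those ranges were separate, with a log2 fold change of -0.51 ± 0.15 (edgeR adjusted p = 0.0947). Among the 13 Eph receptors tested, 0 passed and the median was -0.01. Ephb1, which binds ephrin-B ligands, had 37.6 to 62.4 CPM in OFC (median 48.2) and 21.9 to 44.6 CPM in mPFC (median 29.9), giving 0.62 ± 0.16 on the log2 scale (edgeR adjusted p = 0.0698).

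Of 20 semaphorins, 11 had positive and 9 negative log2 fold changes, and Sema7a alone passed. Sema3d, a secreted class 3 semaphorin, had 2.64 to 4.66 CPM in OFC (median 4.07) and 3.93 to 11.4 CPM in mPFC (median 6.61), giving -0.88 ± 0.25 on the log2 scale (edgeR adjusted p = 0.0834). Neither neuropilin passed, at -0.39 for Nrp1 (adjusted p = 0.184) and -0.57 for Nrp2 (adjusted p = 0.1105). Of the 9 plexins 0 passed. Plxnd1, the receptor of Sema3e, had 19.5 to 31.5 CPM in OFC (median 27.8) and 7.77 to 22.1 CPM in mPFC (median 19.3), with a log2 fold change of 0.59 ± 0.20 (edgeR adjusted p = 0.173).

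**Figure D2:**
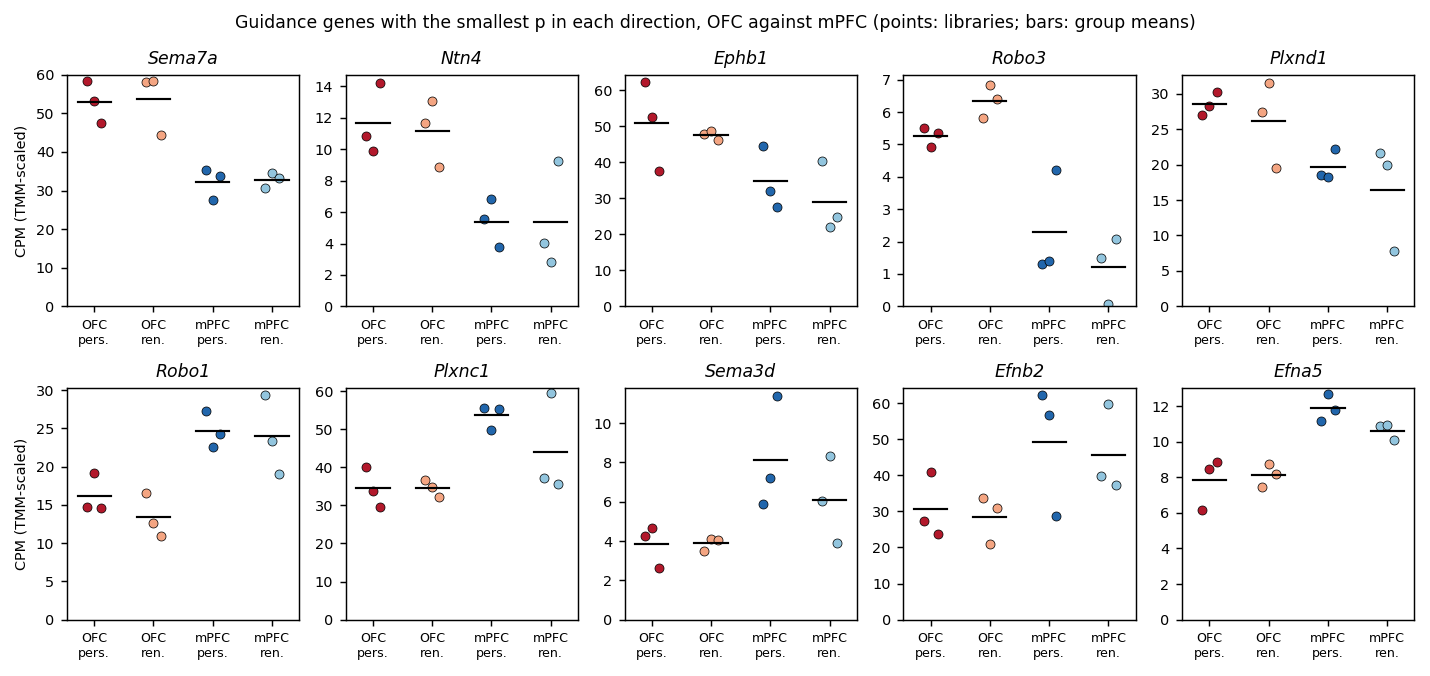
CPM in each of the 12 dissections for the 5 members with the smallest p in each direction, OFC groups left of mPFC groups, with points for libraries and bars for group means. Sema7a, Robo3 and Efna5 show no overlap between the regions, and Plxnd1 has 1 low mPFC library at 7.77 CPM.

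**Figure D3:**
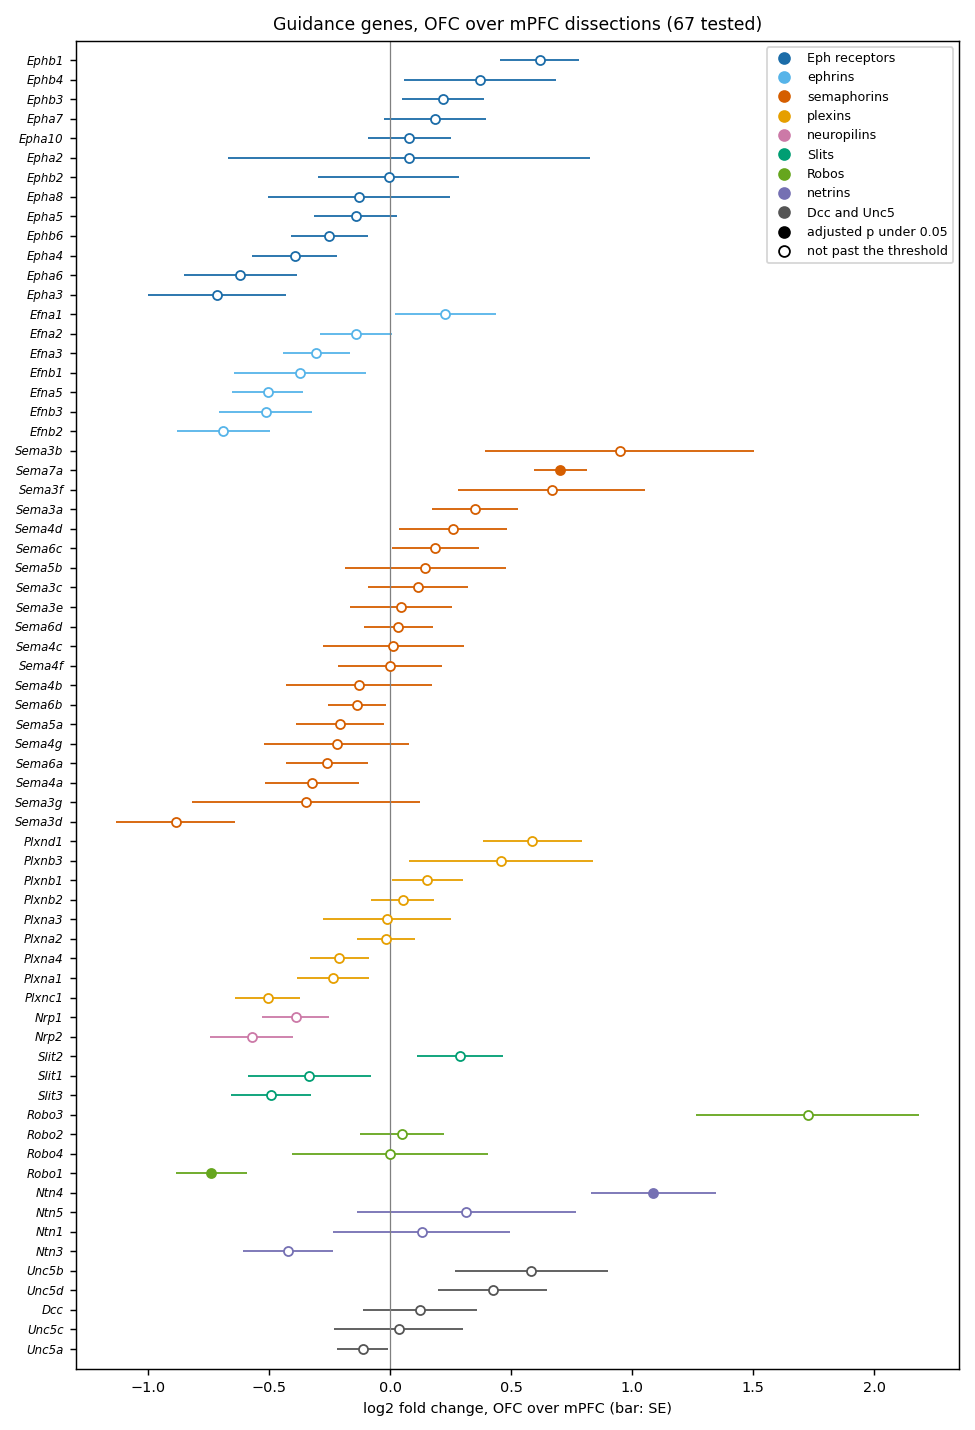
Log2 fold change, OFC over mPFC, with SE for the 67 members tested, grouped by family; filled points passed an adjusted p under 0.05. The filled points are Sema7a and Ntn4 to the right of 0 and Robo1 to the left, and 6 of 7 ephrins lie to the left.

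Some markers of other cells also differed between the regions, but among the listed markers only Gfap and Ppp1r1b passed the test. Of the 4 microglial and 3 inhibitory neuron markers 0 had positive log2 fold changes (medians -0.25 and -0.14) and 0 passed. In bulk tissue fewer cells of a type and less RNA per cell cannot be told apart. The 6 oligodendrocyte markers summed to 5532 to 19417 CPM in OFC (median 13370) and 1902 to 7763 CPM in mPFC (median 4383). All 6 had positive log2 fold changes (median 0.78) and 0 passed the test. The 3 markers of oligodendrocyte precursors ran the other way, at 26.2 to 51.8 CPM in OFC (median 36.3) and 38.7 to 80.7 CPM in mPFC (median 64.4), with 3 negative log2 fold changes (median -0.64) and 0 past the test. Gfap, an astrocyte filament gene, averaged 428 CPM in OFC and 165 CPM in mPFC (log2 fold change 1.39, edgeR adjusted p = 0.00459). Ppp1r1b, taken from a list of striatal neuron markers, averaged 148 CPM in OFC and 86.9 CPM in mPFC (0.76, adjusted p = 0.00474). With the summed oligodendrocyte level as a covariate, an alternative chosen after seeing the data, Sema7a stood at 0.65 (adjusted p = 0.0616), Ntn4 at 0.77 (0.279) and Robo1 at -0.56 (0.172), so that all 3 calls ended; 0.951% of all genes were called in that fit. Efnb2 moved to -0.14 in that fit, and the one member called was Sema4f, at 0.79 (adjusted p = 0.0429). The covariate itself ran higher in OFC, so that fit cannot fully separate it from the region. The part of those cells in the region differences was not tested.

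A list of 89 partners and effectors of guidance signalling held intracellular genes as well as other ligands and surface molecules. Of these, 86 were tested, and 0 were higher and 2 lower in OFC (2.33%, beside 1.85% of all genes). Dpysl5, a collapsin response mediator protein, averaged 11.3 ± 2.33 CPM in OFC and 18.3 ± 4.66 CPM in mPFC (log2 fold change -0.68 ± 0.16, edgeR adjusted p = 0.0403). Dpysl2, another of that family, averaged 188 ± 17.6 CPM in OFC and 249 ± 49.3 CPM in mPFC (-0.40 ± 0.10, adjusted p = 0.0443). Both calls ended in most alternatives, Dpysl5 being called in 8 and Dpysl2 in 5 of 19. Dpysl3 (-0.56, adjusted p = 0.0594) and the kinase Pak3 (-0.48, adjusted p = 0.0600) did not pass. On the other side Cntn2, an axonal adhesion molecule, was at 0.94 (adjusted p = 0.0624), Mical2, an actin-oxidising enzyme, at 0.42 (adjusted p = 0.0869) and Rgma, a neogenin ligand, at 0.38 (adjusted p = 0.308). The list had 35 positive and 51 negative values and a median of -0.04.

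Fitted within each phenotype, the region difference passed for 0 of 67 members in perseverers (0.12% of all genes passed) and 0 of 67 in renouncers (0.0666% of all genes). At an unadjusted p under 0.05 there were 12 members in each phenotype (17.9%), beside 8.34% of all genes in perseverers and 6.79% in renouncers. In perseverers DESeq2 called 1 member (0.978% of all genes) and limma 9 (4.8%). In renouncers DESeq2 called 3 members (0.725% of all genes) and limma 0 (0.14%). The sign was the same in both phenotypes for 49 of 67 members (73.1%), beside 67.3% of all 15025 genes. The interaction of region and phenotype was called for 0 of 67 members and 0% of all genes by edgeR, with 1 member (1.49%) at an unadjusted p under 0.05, beside 1.5% of all genes; DESeq2 and limma also called 0. That member was Sema3b, a secreted semaphorin, with a log2 difference, OFC over mPFC, of -0.13 ± 0.63 in perseverers and 2.22 ± 0.69 in renouncers. The interaction was -2.34 ± 0.93 (edgeR adjusted p = 0.999986), and -1.14 without mPFC perseverer 2, which had 5.65 CPM where the other mPFC perseverers had 0.958 and 1.21.

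**Figure D4:**
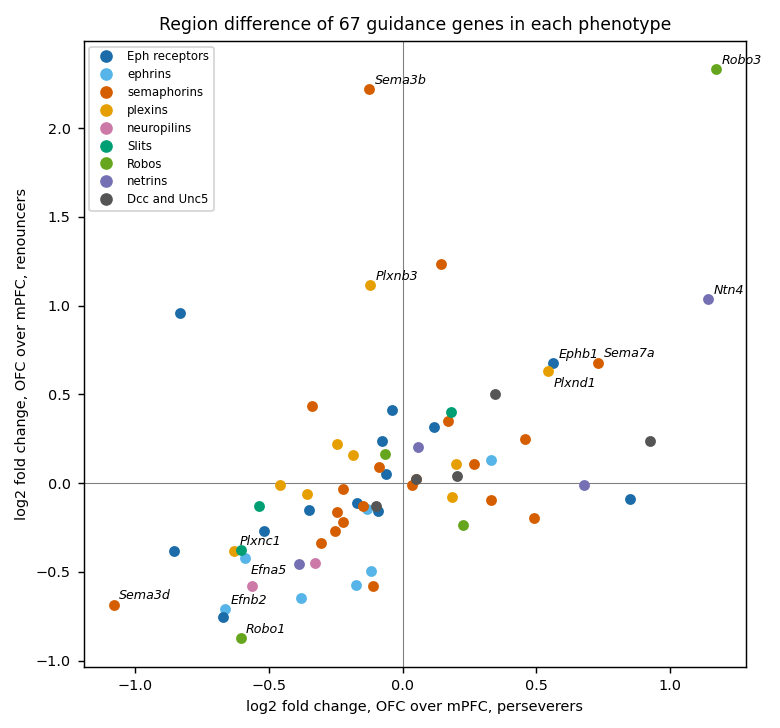
Log2 fold change, OFC over mPFC, within perseverers (x axis) and within renouncers (y axis) for 67 members, coloured by family. Sema7a and Ntn4 lie in the upper right and Robo1 in the lower left, and 49 members have the same sign in both.

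Perseverers were set against renouncers within each tissue. No guidance gene passed in OFC dissections (0 of 67, and 0% of 14621 genes), in mPFC dissections (0 of 67, and 0% of 14375 genes) or in OFC imprints (0 of 32, and 0% of 10530 genes). DESeq2 and limma called 0 members in each of these as well. At an unadjusted edgeR p under 0.05 there were 3 members in OFC (4.48%, beside 2.58% of all genes), 3 in mPFC (4.48%, beside 4.45%) and 2 in imprints (6.25%, beside 1.72%).

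In OFC dissections the smallest p belonged to Plxnb2, a receptor of class 4 semaphorins, at 44.6, 50.2 and 37.1 CPM in perseverers and 31.8, 35.2 and 26.9 CPM in renouncers. The groups did not overlap, and the log2 fold change of 0.50 ± 0.17 had an edgeR adjusted p of 0.951. Plxnb1 had 84.8, 91.6 and 107.7 CPM in perseverers and 80.1, 70.6 and 54.5 CPM in renouncers (0.48 ± 0.18, adjusted p = 0.951). Unc5a had 115.5, 136 and 127 CPM in perseverers and 110, 103 and 82.5 CPM in renouncers (0.37 ± 0.16, adjusted p = 0.951). Both were separate as well. These genes were picked for their small p, and the share of all genes without overlap was counted only between the regions. The negative values with the smallest p were -0.57 for Plxna3, -1.18 for Epha2, which had only 2 to 27 raw counts in these libraries, and -0.36 for Unc5d. Over the alternatives these spanned -0.92 to -0.35, -2.26 to -0.60 and -0.65 to -0.18 in that order.

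In mPFC dissections Plxnb3 had 9.79, 8.88 and 3.40 CPM in perseverers and 1.49, 1.40 and 3.39 CPM in renouncers. Perseverer 3 and renouncer 3 were nearly level, and the log2 fold change was 1.78 ± 0.52 (edgeR adjusted p = 0.943). Plxna1, a plexin that pairs with neuropilins, had 79.1, 81.8 and 86.7 CPM in perseverers and 52.7, 63.9 and 37.3 CPM in renouncers. Those groups were apart, with a log2 fold change of 0.67 ± 0.21 (edgeR adjusted p = 0.943). Sema3b had 0.958, 5.65 and 1.21 CPM in perseverers and 0.538, 0.468 and 0.693 CPM in renouncers (2.15 ± 0.82, adjusted p = 0.943), so that perseverer 2 was far above the rest, and without it the log2 fold change was 0.93. Of the 67 members 47 had positive values in mPFC (median 0.16), where 50.4% of all genes were positive, and 41 in OFC (median 0.05), where 50.2% of all genes were. Negative values were -0.87 for Ephb4, the venous receptor of ephrin-B2, -1.34 for Ntn5 and -0.49 for Sema3a. Over the alternatives Ephb4 spanned -1.19 to -0.52, Ntn5 -2.09 to -0.31 and Sema3a -0.79 to -0.23. Ntn5 shares 23.4% of its exon bases with Sec1, and counts from these unstranded libraries cannot separate these genes there.

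In OFC imprints, scaled over the 11 OFC libraries, Plxnd1 had 1.66 and 2.53 CPM in perseverers and 8.77, 11.1 and 13.2 CPM in renouncers, without overlap. The perseverer values rested on 5 and 3 raw counts, and the share of all genes without overlap was not counted here. The log2 fold change of Plxnd1 was -2.46 ± 0.91 (edgeR adjusted p = 0.999885). Epha4, a receptor that binds both ephrin classes, had 3.65 and 5.05 CPM in perseverers and 9.65, 13.0 and 19.0 CPM in renouncers (-1.71 ± 0.77, adjusted p = 0.999885). Epha10 stood at -1.38, and positive values were 2.02 for Sema3e, 2.17 for Unc5b and 0.78 for Plxnb2. Sema3e and Unc5b turned to -0.30 and -4.53 without perseverer imprint 1, which held 24 and 13 of their raw counts against 1 and 0 in perseverer imprint 2. Epha10 spanned -1.75 to -0.87 and Plxnb2 0.40 to 1.11 over the alternatives. The imprints other than renouncer 1 held only 297 to 862 counts of guidance genes, so that differences of most members were not detectable at this depth.

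OFC dissections were set against OFC imprints in the 11 OFC libraries. The stage (after against before the protocol) and the way of collection coincide and cannot be told apart. Of 65 members tested, 17 were higher in dissections (26.2%), beside 17.5% of all genes, and 0 were lower, beside 15.6%; in either direction 33.1% of all genes passed. DESeq2 called 20 members higher and 2 lower (40.8% of all genes in either direction), and limma 21 higher and 0 lower (26.8%). With RLE scaling edgeR called 15 members higher and 1 lower, beside 2151 higher and 2453 lower of all 14236 genes. Over all genes, 52.9% of the edgeR calls were higher with TMM scaling and 46.7% with RLE scaling. The median log2 fold change was 0.77 for the members and 0.13 for all genes tested, and 51 members were positive. The 17 were Epha3, Epha4, Epha7 and Ephb6 among receptors of ephrins, Efna3, the semaphorins Sema3a, Sema3d, Sema3f, Sema4f, Sema5b, Sema6b and Sema7a, Plxna1, Slit2, Robo1, Robo2 and Unc5a.

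On a common scale over the 11 OFC libraries, Sema3a, a secreted repellent, had 7.08, 7.47 and 4.91 CPM in perseverer dissections and 9.78, 6.65 and 7.64 CPM in renouncer dissections. In imprints it had 0.663 and 0.842 CPM in perseverers and 1.87, 0 and 1.06 CPM in renouncers. Every dissection exceeded every imprint, with a log2 fold change of 2.59 ± 0.46 (edgeR adjusted p = 0.00042). Efna3 had 12.6, 15.05 and 11.5 CPM in perseverer dissections and 12.6, 8.51 and 9.53 CPM in renouncer dissections. In imprints it had 1.99 and 1.68 CPM in perseverers and 2.39, 3.71 and 4.23 CPM in renouncers. These were again apart, with a log2 fold change of 1.98 ± 0.36 (edgeR adjusted p = 0.000544). Sema7a had 19.7, 18.0 and 15.6 CPM in perseverer dissections and 19.95, 19.2 and 14.99 CPM in renouncer dissections. In imprints it had 0.994 and 1.68 CPM in perseverers and 8.14, 0 and 0 CPM in renouncers. The highest imprint was renouncer 1, the library with the smallest haemoglobin share, and the log2 fold change was 2.47 ± 0.56 (edgeR adjusted p = 0.003), or 4.51 without that library. Further log2 fold changes were 2.68 for Sema5b, 2.58 for Epha7, 2.45 for Sema4f, 1.80 for Robo2, 1.77 for Unc5a, 1.35 for Sema6b and 1.33 for Ephb6.

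Negative values did not pass in edgeR, at -0.66 for Sema4a (adjusted p = 0.0674), -1.09 for Unc5c and -0.48 for Ephb1. Of 18 alternatives, 5 called Sema4a and 2 called Unc5c, and Unc5c spanned -1.31 to -0.38 and Ephb1 -0.73 to -0.30. Without renouncer imprint 1, 24 members were higher, beside 19.4% of all genes, and 1 was lower, beside 17.4%. Excitatory neuron markers moved with these genes, at 3070 to 4780 CPM in OFC dissections and 416 to 936 CPM in imprints, each on its own scale. These ranges overstate the gap, since TMM factors of OFC dissections were 0.959 to 1.02 on their own scale and 2.87 to 3.03 on the common one. In the fit 4 of 4 of these markers were higher in dissections. The 4 microglial and 5 red cell markers were all lower in dissections. Their part in the result was not tested.

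**Figure D5:**
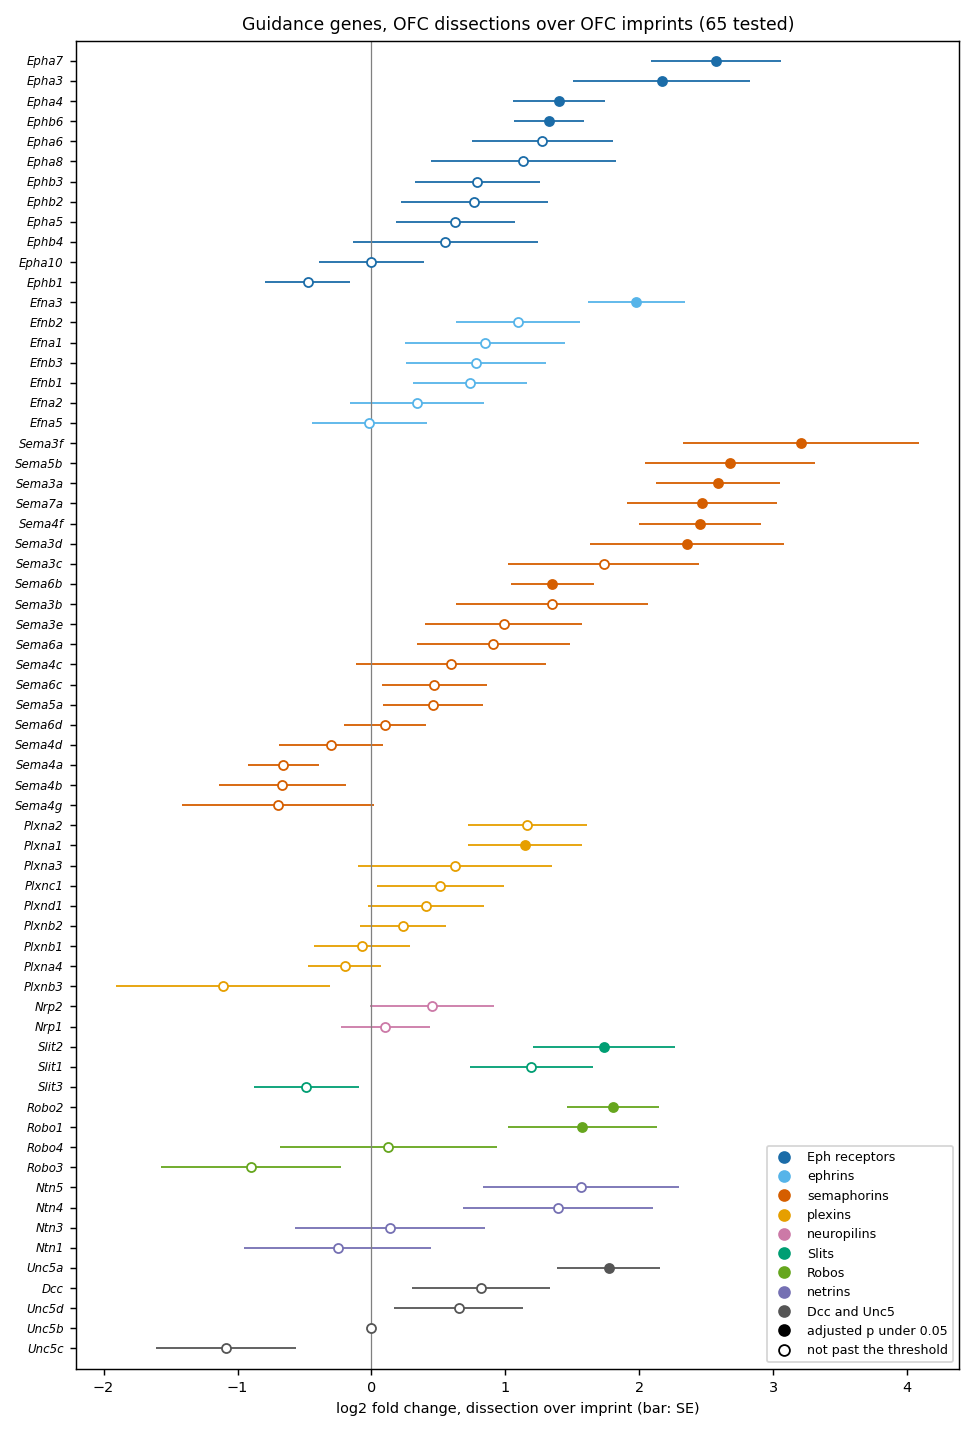
Log2 fold change, OFC dissections over OFC imprints, with SE for the 65 members tested, grouped by family; filled points passed an adjusted p under 0.05, and Unc5b, whose fitted change was about 0, has no bar. The 17 filled points all lie to the right of 0.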

How the data were processed

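Bulk RNA from 17 mouse libraries was analysed. Per the labels' protocols, extraction used a Qiagen kit, and SMART-Seq v4 with Nextera was used for library making, a chemistry that loses strand. The authors deposited raw counts per gene, in 3 tables, with a gene length in bases as another column. Per the submitters' processing notes the build was mm10 and FastQC 0.11.8 was used; the sources used here name no aligner, counter or annotation. Depth was 8960549 to 20945108 counts per library, and of 136 pairs of libraries 0 were identical.

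Counts were tested in R 4.3.3 with edgeR 4.0.16 (filterByExpr, TMM, robust quasi-likelihood F test, two-sided), fitted on all genes, with Benjamini-Hochberg adjustment over all genes tested and a threshold of 0.05. The approximate SE is |log2 fold change| over the square root of F. Dissection levels were TMM-scaled over 12 libraries and imprint levels over 11 OFC libraries, so the scales differ unless a common one is named. The region fit had phenotype as a term, and each phenotype fit used 1 table. The scripts were tested on simulated data. Alternatives were DESeq2 1.42.0, limma 3.58.1 (voom with quality weights), RLE scaling, other filters, a looser threshold, a replicate block, other sample sets and leaving out each library.

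Members and lists were chosen with earlier results of these data known. Named genes are the members past the threshold, filled by smallest p to 5 per direction for the regions; elsewhere up to 10 past the threshold and 3 per direction; the highest member per kilobase of each family; and up to 4 effectors per direction, of which 1 is not reported here. Others were named after their values were seen (the lowest netrin receptors, Ntn1, both neuropilins, the remaining members called in dissections, Sema4f and the marker genes). All 69 members matched GENCODE M21 and RefSeq on GRCm38.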

Additional observations from a re-analysis of the deposited data

Results flagged for a closer look

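Plxnd1 had 7.77 CPM in mPFC renouncer 3, far below the other 5 mPFC dissections, which had 18.2 to 22.1 CPM. It was the only flag among 23 groups screened, where chance flags about 1 in 20, so that a single flag is near what chance gives.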

How the results depend on the processing

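Of the 3 members called between OFC and mPFC, Sema7a was called in 18 of 18 alternatives besides the covariate, Robo1 in 14 and Ntn4 in 7. The count was 9 at a threshold of 0.1, 10 with DESeq2, 10 with limma, 11 with the replicate block and 1 with the oligodendrocyte covariate, and 1 to 5 when each library was left out. It was 1 without OFC renouncer 2, OFC perseverer 1, mPFC renouncer 2 or mPFC perseverer 1, and 5 without mPFC renouncer 3 or mPFC perseverer 3. Over all genes the calls numbered 266, against 702 with DESeq2, 930 with limma, 1148 with the block and 538 at 0.1. They numbered 121 without OFC perseverer 1, 136 without OFC renouncer 2, 152 without mPFC perseverer 1, 352 without mPFC renouncer 3 and 472 without mPFC perseverer 3. Within perseverers 0 became 1 with DESeq2, 9 with limma and 1 with the block; within renouncers it became 3 with DESeq2 and 1 with the block. The effector count of 2, among 86 tested, became 7 at 0.1, with DESeq2, with limma and with the block. Over all 14409 genes the calls rose as well, from 266 to 538, 702, 930 and 1148 in that order. A rise in calls was therefore not limited to the effectors. The effector count was 1 with RLE scaling or the stricter filter and 0 without a filter or with the covariate. It was 0 to 5 with each library left out. Dissections against imprints gave 15 to 25 members over the leave-outs, beside 3719 to 5309 of all genes. In the imprint phenotype comparison Sema3e ranged over the leave-outs between -0.30 and 2.89 and Unc5b between -4.53 and 3.14, both reversed without perseverer imprint 1. The phenotype comparisons and the interaction stayed at 0 members in every alternative. The causes of these shifts were not tested.

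Whether replicate numbers pair the dissections is not settled by the labels, which say nothing of a shared animal. The library numbers in the sample descriptions are adjacent, however, for every same-numbered pair of OFC and mPFC dissections of a phenotype. Correlations between libraries, taken after removing group means, do not settle it either. Correlations of same-numbered libraries between regions were 0.210, 0.663 and 0.677 for perseverers, while renouncer pairs gave 0.217, -0.0818 and 0.344. Same-numbered libraries of opposite phenotype, which cannot share an animal, gave 0.133, -0.426 and 0.173 in OFC dissections. They gave 0.0216, 0.344 and 0.252 in mPFC dissections, and 0.610 and 0.587 in imprints. Values in the range of the renouncer pairs thus also occurred across phenotypes. Of the 6 OFC libraries, 4 correlated best with their own number. The 11 members called with the block were Sema7a, Ntn4, Robo1, Robo3, Ephb1, Efnb2, Plxnc1, Plxnd1, Nrp1, Nrp2 and Sema4a. The imprints' depth limits their comparison to 32 members.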
